A study of Homo sapiens with 14 samples.

Results

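The phosphatase genes *DUSP1*, *DUSP2*, *DUSP4*, *DUSP5* and *DUSP6* and the immediate early and feedback genes *EGR1*, *FOS*, *FOSL2*, *IER3* and *SPRY1* were followed in cell lines of T-cell acute lymphoblastic leukemia (T-ALL) after exposure to AS605240, an inhibitor of PI3K. They were chosen by symbol, and every probe set that names only 1 of these symbols was used, which gave 23 probe sets for 10 genes among 19775 genes with such a probe set. The 7 established T-ALL lines were TALL-1, ALL-SIL, Molt-4, CCRF-CEM, Jurkat, P12-ICHIKAWA and HPB-ALL. Each line gave 1 HG-U133 Plus 2.0 array after 6 h with AS605240 and 1 array after the same time with vehicle, 14 arrays in all. AS605240 was used at the IC50 of each line, so its concentration differed between lines. A line entered each group with a single array, so that the spread behind the tests of the treatment is that of the change between lines. The RNA came from whole cultures, so that fewer responding cells and less RNA per cell cannot be told apart.

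DUSP1, DUSP2, DUSP4, DUSP5 and DUSP6 are dual-specificity phosphatases that switch off MAP kinases by removing the phosphates of the activation loop. DUSP6 acts on ERK in the cytoplasm and DUSP5 on ERK in the nucleus, DUSP1 acts mainly on p38 and JNK, and DUSP2, first known as PAC-1, is an early gene of activated T cells. Most of them are themselves induced by MAP kinase signals and so form a negative feedback. EGR1, FOS and FOSL2 are transcription factors of the immediate early response, whose genes are induced from ready-made factors without new protein synthesis, IER3 is an immediate early gene linked to cell survival, and SPRY1 is a Sprouty protein that restrains signaling from receptor tyrosine kinases to RAS and ERK. PI3K and RAS to ERK signaling run beside each other downstream of the same receptors and exchange signals at several points.

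The arrays were alike in median signal, but their spike-in controls were not. The median signal of an array was between 19.9 and 25.04, between 36.6% and 39.6% of probe sets had a signal over 50, and the median change over all probe sets in a line was between 0.0048 and 0.061 on the log2 scale. The poly-A spike-in controls changed with AS605240 by -0.014 in CCRF-CEM and 0.49 in Molt-4 on the log2 scale. Their change was 0.24 in HPB-ALL and P12-ICHIKAWA, 0.21 in TALL-1, 0.15 in ALL-SIL and 0.11 in Jurkat. The part of these controls in the results was not tested. Of 13 T-cell markers 10 had a signal over 50 on all 14 arrays, as did 0 of 7 B-cell, 1 of 8 myeloid and 2 of 8 epithelial and fibroblast markers. Under 50 on every array were 0 of the T-cell, 4 of the B-cell, 7 of the myeloid and 5 of the epithelial and fibroblast markers. The exceptions included *CD79A* (22.9 to 386), *CD79B* (0.0073 to 160), *LYZ* (82.0 to 194) and *KRT8* (150 to 599). Of these *CD79B* fell with AS605240, by 0.58 on the log2 scale in 7 of 7 lines (adjusted p = 0.00132 in limma). Another B-cell marker, *BLNK*, rose by 0.40 (adjusted p = 0.0202 in limma), with a highest signal of 31.3. Among the T-cell markers *CD3G* fell by 0.26 (adjusted p = 0.00743) and *TRAT1* rose by 0.29 (adjusted p = 0.0218 in limma). The part of these genes in the results was not tested. P12-ICHIKAWA and TALL-1 stood apart in being nearly alike, with r = 0.994 between their vehicle arrays over the brightest probe set of each gene. The other 20 pairs had an r of 0.908 to 0.953. For *DUSP2*, *DUSP6*, *EGR1*, *FOSL2*, *SPRY1* and the DUSP pairs, a value with both lines averaged and counted as 1 is given too. The exact p of a single gene counts them as 2 lines. All levels below are signals on the linear scale of the deposited values unless a log2 value is named, and all log2 values are log2(signal + 16). Every fold is taken from log2 values and so is a ratio of signal + 16, which for a dim gene is smaller than the ratio of the signals printed beside it.

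The promoter windows are shown because immediate early genes are known to be induced through elements near their start. RefSeq windows of GRCh38.p14 from 250 bases before to 50 bases after the start were at hand for 7 of the 10 genes, as 8 windows. They were searched on both strands for the CArG box, which is bound by the serum response factor, for TGACG of the CREB site, for TGANTCA of AP-1, for CCGGAAG of ETS factors, for GCGTGGG of EGR factors, for GTAAACA of FOXO factors, and for CACGTG, the E-box of Myc. The windows of the 3 called genes that had one, and of *EGR1*, whose change differed most between lines, are given 5′ to 3′ with matches in capitals.
EGR1 chr5:138465229-138465528 (+ strand): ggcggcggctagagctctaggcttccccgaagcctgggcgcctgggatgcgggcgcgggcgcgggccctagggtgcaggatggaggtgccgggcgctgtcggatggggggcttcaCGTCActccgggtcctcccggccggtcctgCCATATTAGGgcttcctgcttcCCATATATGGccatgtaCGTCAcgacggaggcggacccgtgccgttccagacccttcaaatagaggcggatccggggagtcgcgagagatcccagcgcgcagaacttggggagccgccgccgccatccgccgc
DUSP2 chr2:96145391-96145690 (- strand): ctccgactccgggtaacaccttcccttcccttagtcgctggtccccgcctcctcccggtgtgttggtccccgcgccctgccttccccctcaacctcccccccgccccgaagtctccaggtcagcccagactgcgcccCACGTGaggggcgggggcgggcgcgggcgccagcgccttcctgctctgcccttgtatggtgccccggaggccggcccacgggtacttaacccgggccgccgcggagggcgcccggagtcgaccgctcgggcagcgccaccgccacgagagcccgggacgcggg
DUSP6 chr12:89352452-89352751 (- strand): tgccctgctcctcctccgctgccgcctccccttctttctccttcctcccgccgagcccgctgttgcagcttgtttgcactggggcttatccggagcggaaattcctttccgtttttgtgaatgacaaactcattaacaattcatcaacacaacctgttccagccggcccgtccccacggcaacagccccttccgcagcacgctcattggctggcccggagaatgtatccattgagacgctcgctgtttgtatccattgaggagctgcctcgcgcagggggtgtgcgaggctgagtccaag
FOSL2 chr2:28392608-28392907 (+ strand): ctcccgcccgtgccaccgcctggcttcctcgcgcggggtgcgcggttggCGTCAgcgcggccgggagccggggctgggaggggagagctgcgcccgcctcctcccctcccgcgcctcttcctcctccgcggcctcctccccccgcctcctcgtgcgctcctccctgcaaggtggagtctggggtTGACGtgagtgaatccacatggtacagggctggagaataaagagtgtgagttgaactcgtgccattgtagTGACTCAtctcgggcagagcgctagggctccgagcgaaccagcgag
*EGR1* held 2 CArG boxes, at -105 and -83 from the start, and TGACG on the minus strand at -135 and -66. A CArG box occurred in 1.29% of all 35116 windows and, among the 7 genes, in that of *EGR1*. *DUSP2* held 1 E-box at -113, a motif found in 7.26% of windows, and *FOSL2* held TGACG at -201 and -66 and an AP-1 motif at 5, found in 24.6% and 7.71% of windows. The *DUSP6* window held no match to any of the motifs. *DUSP1*, not printed, held TGACG at -172, -125, -122 and -111, of which the last overlaps an E-box at -108, *FOS* held TGACG at -64, and *SPRY1* held an ETS motif at -67 in 1 of its windows. ETS motifs occurred in 10.3% of windows. The EGR motif (6.98% of windows) and the FOXO motif (3.42%) were found in none of the 7 genes. A match is a run of letters and was not tested as a site. Sequence outside the windows was not searched, so that a motif absent here can lie beyond them.

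In the comparison of AS605240 with vehicle, 4 of the 10 genes fell, *DUSP2*, *DUSP5*, *FOSL2* and *IER3*, and 1 rose, *DUSP6*, at an adjusted p under 0.05 in limma, in a fit paired by cell line. Over all 19775 genes 6.82% were lower, 11.5% higher and 18.3% changed in either direction by the same call. All 5 changes were small: no member passed a fold change of 1.5 as well, against 0.506% of all genes lower and 1.07% higher. The median change of the 10 genes was -0.11 on the log2 scale, beside 0.013 over all genes. Of the 23 probe sets, 4 fell, 3 rose and 16 did not pass the test, beside 6.03% lower and 10.4% higher over 42892 probe sets. Dim genes are part of these counts: 6 of the 10 genes (*DUSP1*, *DUSP2*, *DUSP6*, *EGR1*, *IER3* and *SPRY1*) had a signal over 50 on at least 7 arrays, 2 of these fell and 1 rose, and among all genes of that brightness 13.2% were lower and 19.8% higher.

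**Figure D1:**
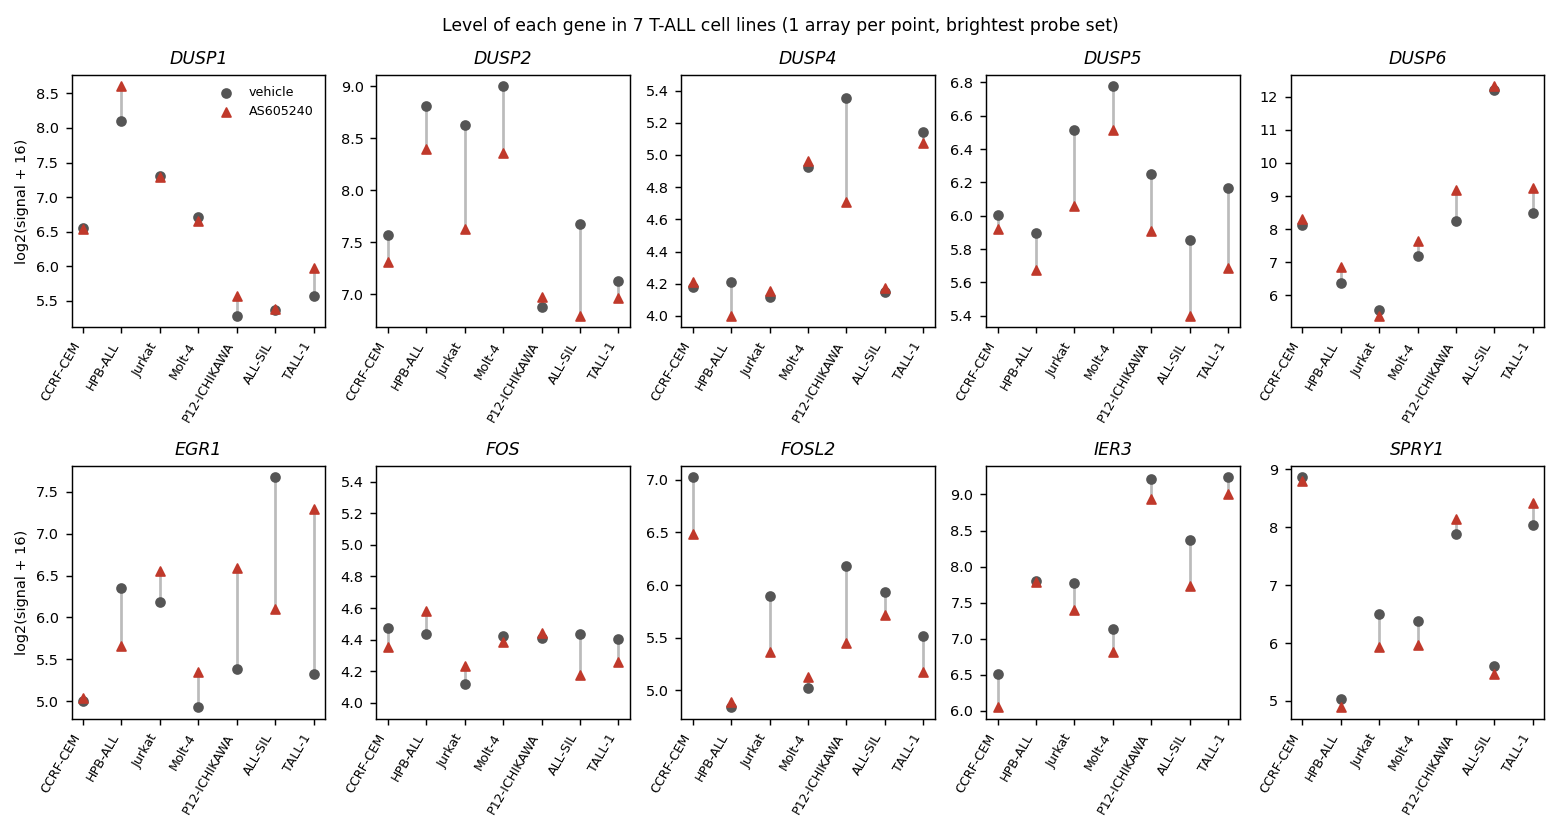
Level of each gene, as log2(signal + 16) on a separate vertical scale for each panel, in the 7 T-ALL lines along the horizontal axis, with circles for the vehicle array and triangles for the AS605240 array of the same line. Triangles lie below circles in 7 of 7 lines for DUSP5 and IER3, whereas the direction differs between lines for EGR1 and SPRY1.

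*DUSP2* fell by 0.47 on the log2 scale (SE 0.11, 95% interval -0.70 to -0.23, 1.38-fold, adjusted p = 0.00977 in limma). With vehicle its signal was 174 in CCRF-CEM, 434 in HPB-ALL, 378 in Jurkat, 497 in Molt-4, 102 in P12-ICHIKAWA, 188 in ALL-SIL and 124 in TALL-1. With AS605240 it was 143, 322, 182, 312, 110, 94.8 and 109 in the same order. It was lower in 6 of 7 lines, but the 2 groups overlapped widely because the lines differed more than the treatments. The drop was widest in Jurkat, 1.996-fold, where 0.394% of genes changed more, and in ALL-SIL, 1.84-fold, and P12-ICHIKAWA was the exception with a change of 0.098 on the log2 scale. The exact two-sided sign-flip permutation test over the 7 lines gave p = 0.0312, where the smallest p that 128 sign patterns allow is 0.0156. With an offset of 4 in place of 16 the call was lost (log2 change -0.49, adjusted p = 0.0548 in limma). With P12-ICHIKAWA and TALL-1 averaged the log2 change was -0.54 (adjusted p = 0.00496 in limma).

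*DUSP5*, the nuclear ERK phosphatase, fell by 0.33 on the log2 scale (SE 0.063, interval -0.47 to -0.19, 1.26-fold, adjusted p = 0.00244 in limma). It was a dim gene, with a vehicle signal of 48.2 in CCRF-CEM, 43.7 in HPB-ALL, 75.5 in Jurkat, 93.7 in Molt-4, 60.1 in P12-ICHIKAWA, 41.8 in ALL-SIL and 55.7 in TALL-1. With AS605240 the signal was 44.5, 34.98, 50.6, 75.3, 44.1, 26.2 and 35.4 in the same order. *DUSP5* was lower in 7 of 7 lines, as were 6.11% of all genes, while another 10% were higher in 7 of 7. Its log2 change ran from -0.48 in TALL-1 to -0.084 in CCRF-CEM. The change of *DUSP5* varied little between lines (SD 0.147 on the log2 scale, larger than in 29.6% of genes), and the exact sign-flip permutation test gave p = 0.0156, the smallest it can give.

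*DUSP6*, the cytoplasmic ERK phosphatase, moved the other way and rose by 0.40 on the log2 scale (SE 0.109, interval 0.17 to 0.63, 1.32-fold, adjusted p = 0.0206 in limma). Its vehicle signal was 261 in CCRF-CEM, 66.4 in HPB-ALL, 30.8 in Jurkat, 128.4 in Molt-4, 284 in P12-ICHIKAWA, 4731 in ALL-SIL and 343 in TALL-1. With AS605240 it was 302, 101, 25.4, 183, 560, 5124 and 592 in the same order. It was higher in 6 of 7 lines, with Jurkat, the line with the lowest level, as the exception, and the 2 groups overlapped. The rise was widest in P12-ICHIKAWA, 1.92-fold, and TALL-1, 1.70-fold, the lines whose arrays were nearly alike. The exact sign-flip permutation test gave p = 0.0469.

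All 3 probe sets of *DUSP6* rose. The other 2 changed by 0.47 (adjusted p = 0.0255) and 0.38 (adjusted p = 0.0166 in limma) on the log2 scale, the latter in 7 of 7 lines, and their levels followed the brightest probe set over the 14 arrays with r = 0.996 and 0.991. The call of the brightest probe set depended on single lines: its adjusted p in limma was 0.0590 with P12-ICHIKAWA and TALL-1 averaged (log2 change 0.33), 0.0688 without TALL-1, 0.0628 without P12-ICHIKAWA, 0.0526 without Molt-4 and 0.0520 without HPB-ALL. It was 0.0950 with an offset of 4 in place of 16.

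*DUSP1* did not pass the test (log2 change 0.16, SE 0.077, interval -0.005 to 0.33, adjusted p = 0.198 in limma). Its vehicle signal was 77.6 in CCRF-CEM, 260 in HPB-ALL, 142 in Jurkat, 89.1 in Molt-4, 22.8 in P12-ICHIKAWA, 25.2 in ALL-SIL and 31.7 in TALL-1, against 77.4, 374, 141, 84.2, 31.2, 25.7 and 47.1 with AS605240. Higher values were seen in HPB-ALL, TALL-1 and P12-ICHIKAWA, by 0.50, 0.41 and 0.28 on the log2 scale, and the other 4 lines moved by 0.068 or less. Its other probe sets differed from each other, at 0.20 (adjusted p = 0.179) and -0.11 (adjusted p = 0.287 in limma). *DUSP4*, a nuclear phosphatase of ERK and JNK, was under 50 on every array with all 3 probe sets. The brightest of these was between 0.0147 and 24.96 and changed by -0.11 on the log2 scale (adjusted p = 0.425 in limma), while the other 2 had changes of 0.032 and 0.14, so that no direction can be given.

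The change with AS605240 differed between phosphatases. Over the 10 pairs of the 5 DUSP genes, compared line by line after their values had been seen, the change of *DUSP2* was below that of *DUSP6* in 7 of 7 lines, with a difference of 0.87 ± 0.21 in log2 change (SD, n = 7, exact sign-flip permutation p = 0.0156, 0.0391 after Benjamini-Hochberg adjustment over the 10 pairs). *DUSP5* was also below *DUSP6* in 7 of 7 lines (0.73 ± 0.41, SD), and *DUSP1* was above *DUSP2* by 0.63 ± 0.32 and above *DUSP5* by 0.49 ± 0.28, each with the same adjusted exact p of 0.0391. The other 6 pairs did not pass, and of these *DUSP2* and *DUSP5* differed by 0.14 ± 0.38 (SD, n = 7, adjusted exact p = 0.375). With P12-ICHIKAWA and TALL-1 averaged, the same 4 differences were 0.86 ± 0.22, 0.64 ± 0.36, 0.67 ± 0.31 and 0.45 ± 0.27 (SD, n = 6) with the same direction in 6 of 6 lines, and their exact p of 0.0312, the smallest that 6 lines allow, was 0.0625 after adjustment. None of the 10 pairs passed in that setting. Across lines, however, the changes of *DUSP2* and *DUSP6* kept nearly the same order. Jurkat and ALL-SIL had the lowest change of both genes and P12-ICHIKAWA and TALL-1 the highest, with r = 0.861 over 7 lines, and 0.843 over the 6 lines without TALL-1. The changes of *SPRY1* followed both, with r = 0.840 to *DUSP2* and 0.795 to *DUSP6* (0.863 and 0.757 without TALL-1). Those of *EGR1* had r = 0.573 to *DUSP6*, and 0.440 without TALL-1. These r values are a description of 7 points, and both genes of a pair were read on the same arrays.

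**Figure D2:**
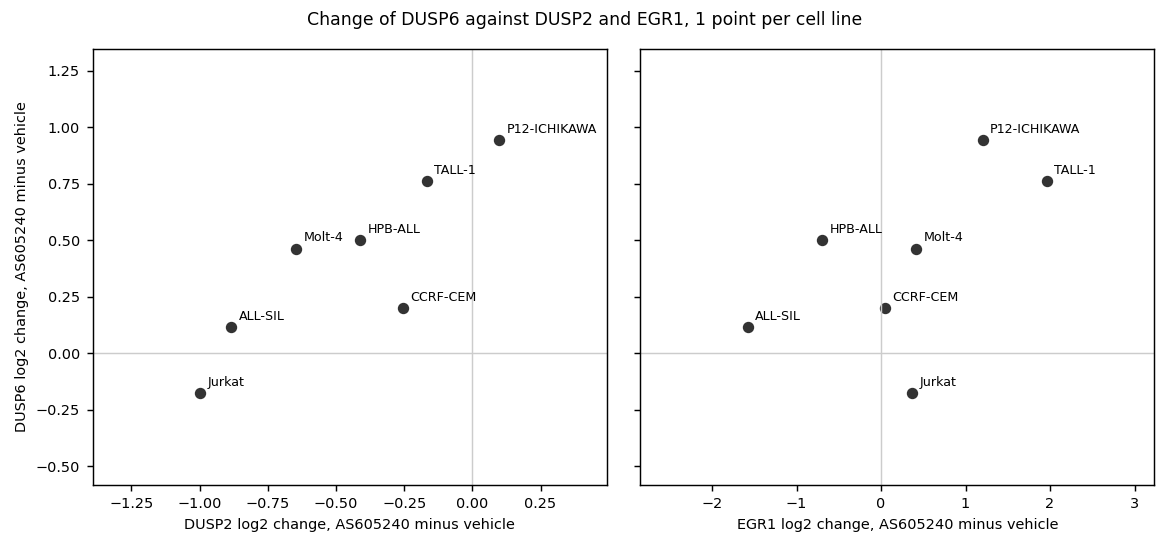
Log2 change of DUSP6 (vertical axis) against that of DUSP2 (left) and EGR1 (right), AS605240 minus vehicle, 1 point per T-ALL line. Jurkat and ALL-SIL lie lowest and P12-ICHIKAWA and TALL-1 highest for DUSP6, in the same order as for DUSP2 apart from CCRF-CEM.

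*EGR1*, a zinc finger transcription factor, had the widest change of the 10 genes within a line and no common direction. With vehicle its signal was 16.03 in CCRF-CEM, 65.8 in HPB-ALL, 56.5 in Jurkat, 14.5 in Molt-4, 25.7 in P12-ICHIKAWA, 188 in ALL-SIL and 24.2 in TALL-1. With AS605240 it was 16.98, 34.5, 77.6, 24.7, 80.2, 52.4 and 141 in the same order. It was 3.897-fold higher with AS605240 in TALL-1, the fifth largest change of 19775 genes in that line, 2.31-fold higher in P12-ICHIKAWA, and 2.98-fold lower in ALL-SIL, where it ranked 11 of 19775. It was also 1.62-fold lower in HPB-ALL, and the other 3 lines had log2 changes of 0.042, 0.37 and 0.42. Each of these values rests on 1 array against 1 array, with no replicate of the line. The mean change was 0.25 (SE 0.29, interval -0.38 to 0.88, adjusted p = 0.674 in limma) and turned to -0.040 without TALL-1. It was 0.023 with P12-ICHIKAWA and TALL-1 averaged, 0.086 without P12-ICHIKAWA and 0.55 without ALL-SIL, and passed the test in none of these.

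The spread of the *EGR1* change over the lines, an SD of 1.17 on the log2 scale, was larger than that of 99.9% of genes. A separate probe set of the gene had the same sign in 7 of 7 lines and followed it with r = 0.979 over the lines (mean log2 change 0.27, adjusted p = 0.311 in limma). The last one had the same sign in 2 of 7 lines and a mean change of -0.052 (adjusted p = 0.671 in limma). The hybridization controls of the array also moved, by -0.46 on the log2 scale in P12-ICHIKAWA and by 0.18 in both TALL-1 and ALL-SIL. They moved by 0.15 in CCRF-CEM and HPB-ALL, 0.13 in Jurkat and 0.035 in Molt-4. Their part in the change of *EGR1* was not tested.

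**Figure D3:**
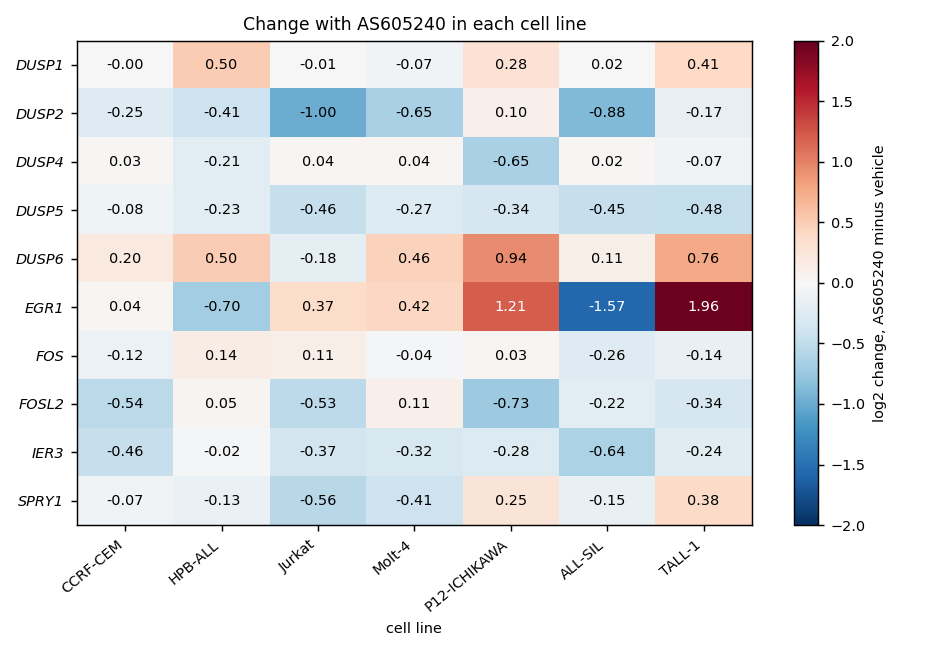
Log2 change, AS605240 minus vehicle, of each gene (rows) in each T-ALL line (columns), with blue for lower and red for higher and the value written in each cell. EGR1 spans the widest range, from -1.57 in ALL-SIL to 1.96 in TALL-1, while the rows of DUSP5 and IER3 are below 0 in every line.

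Of the AP-1 genes, *FOS* gave no usable level. Its only probe set had a signal of 1.38 to 7.89 on the 14 arrays, all below the offset of 16, and a log2 change of -0.039 (SE 0.063, adjusted p = 0.775 in limma). *FOSL2*, which codes for the FOS relative FRA2, fell by 0.31 on the log2 scale (SE 0.094, interval -0.52 to -0.11, 1.24-fold, adjusted p = 0.0332 in limma). Its signal was 114 with vehicle and 73.4 with AS605240 in CCRF-CEM, 43.5 and 25.2 in Jurkat, 56.7 and 27.8 in P12-ICHIKAWA, 45.3 and 36.5 in ALL-SIL, and 29.8 and 20.2 in TALL-1. In HPB-ALL it was 12.7 and 13.7 and in Molt-4 16.5 and 19.0, the 2 lines with the lowest levels. It was therefore lower in 5 of 7 lines, and the exact sign-flip permutation test gave p = 0.0625. None of the other 4 probe sets of *FOSL2* passed, with log2 changes of -0.22, -0.20, -0.18 and 0.016 (adjusted p from 0.0897 to 0.924 in limma). The call was lost in limma with P12-ICHIKAWA and TALL-1 averaged (adjusted p = 0.0701), without CCRF-CEM (0.0933), without Jurkat (0.0988), without P12-ICHIKAWA (0.101), without ALL-SIL (0.0537) and without TALL-1 (0.0720).

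*IER3* fell by 0.33 on the log2 scale (SE 0.071, interval -0.48 to -0.18, 1.26-fold, adjusted p = 0.00481 in limma) and was lower in 7 of 7 lines. With vehicle its signal was 75.1 in CCRF-CEM, 207 in HPB-ALL, 203 in Jurkat, 125 in Molt-4, 580 in P12-ICHIKAWA, 316 in ALL-SIL and 588 in TALL-1. With AS605240 it was 50.3, 205, 153, 97.1, 475, 197 and 496 in the same order. The drop was widest in ALL-SIL, 1.56-fold, and CCRF-CEM, 1.37-fold, whereas HPB-ALL moved by -0.016 on the log2 scale. The exact sign-flip permutation test gave p = 0.0156, the smallest possible. *IER3* and *DUSP5* kept their calls when any 1 line was left out and when P12-ICHIKAWA and TALL-1 were averaged.

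*SPRY1* did not pass the test (log2 change -0.099, SE 0.098, interval -0.31 to 0.11, adjusted p = 0.597 in limma). Its signal was 450 with vehicle and 429 with AS605240 in CCRF-CEM, 16.6 and 13.7 in HPB-ALL, 74.3 and 45.2 in Jurkat, 67.4 and 46.7 in Molt-4, and 32.9 and 28.1 in ALL-SIL. In P12-ICHIKAWA it was 221 and 267 and in TALL-1 248.7 and 328, the only lines in which it was higher with AS605240. The mean change was -0.17 with these lines averaged, and with 1 line left out it ran from -0.022 without Jurkat and -0.047 without Molt-4 to -0.16 without P12-ICHIKAWA and -0.18 without TALL-1, none of which passed the test. Its second probe set had a change of -0.15 (adjusted p = 0.335 in limma). This probe set was higher in TALL-1 alone (0.44 on the log2 scale) and differed in sign from the first in P12-ICHIKAWA (-0.13).

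**Figure D4:**
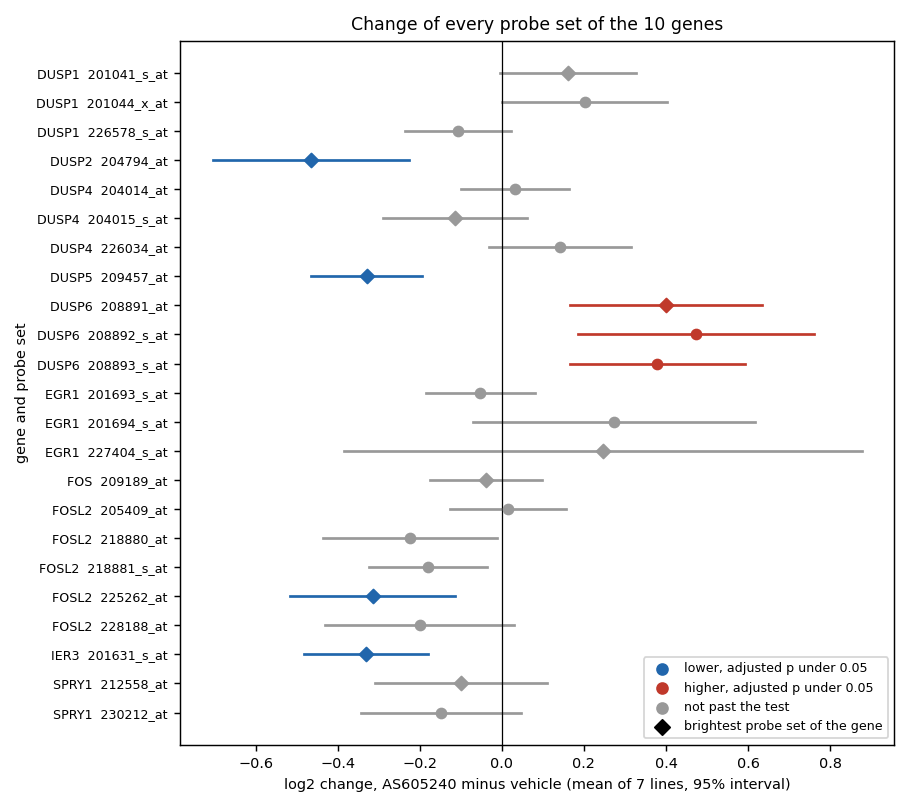
Mean log2 change, AS605240 minus vehicle, over 7 T-ALL lines for each of the 23 probe sets (1 row each), with the 95% interval from limma and diamonds for the brightest probe set of a gene. All 3 probe sets of DUSP6 lie to the right of 0, and those of DUSP1 and DUSP4 lie on both sides.

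Levels differed more between lines than with the treatment. By the limma F test over lines, 8 of the 10 genes differed between lines, beside 66.9% of all genes, and the exceptions were *FOS* and *EGR1* (adjusted p = 0.0666 in limma). The 8 include *DUSP4*, which was under 50 on every array and whose order of lines is not given. *DUSP6* had the widest range, 112-fold between ALL-SIL and Jurkat, taking the mean log2 value of the 2 arrays of a line, and 2.95% of genes had lines over 16-fold apart. ALL-SIL was 3.40 (SE 0.20, adjusted p = 8.4e-09 in limma) on the log2 scale above TALL-1, the next line. TALL-1, P12-ICHIKAWA and CCRF-CEM followed, and the steps between them did not pass the test (adjusted p = 0.877 and 0.0782 in limma), and then Molt-4, HPB-ALL and Jurkat, each lower than the line before (adjusted p from 0.000379 to 0.00714).

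*SPRY1* ranged over 14.6-fold, from CCRF-CEM over TALL-1, P12-ICHIKAWA, Jurkat, Molt-4 and ALL-SIL down to HPB-ALL, and in this order the steps from TALL-1 to P12-ICHIKAWA (adjusted p = 0.787 in limma) and from Jurkat to Molt-4 (0.920) did not pass the test. *DUSP1* was 7.91-fold higher in HPB-ALL than in ALL-SIL, with Jurkat second, Molt-4 and CCRF-CEM within their spread of each other (adjusted p = 0.574 in limma), and TALL-1, P12-ICHIKAWA and ALL-SIL at the bottom, where no step passed the test. *IER3* was highest in TALL-1 and P12-ICHIKAWA (adjusted p = 0.970 between them in limma), 7.15-fold above CCRF-CEM, the lowest. *FOSL2* was highest in CCRF-CEM, 0.93 on the log2 scale above ALL-SIL (adjusted p = 0.000705 in limma), and no lower step passed the test. *DUSP2* was highest in Molt-4, HPB-ALL and Jurkat, with a step of 0.68 on the log2 scale from Jurkat to CCRF-CEM (adjusted p = 0.0270 in limma), and no step passed the test above or below it. *DUSP5* ranged over 2.03-fold from Molt-4 to ALL-SIL, and Molt-4 was above Jurkat (adjusted p = 0.0353 in limma), the only step between neighbours that passed. With 1 array per treatment in a line, these tests take the spread from the 2 arrays of each line after the common treatment effect is removed.

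The genes whose levels over the 14 arrays were most like each member were searched among 9186 genes with a signal over 50 on at least 7 arrays. The closest to *DUSP6* were *CALHM2* (r = 0.991, and 0.975 over the 12 arrays without ALL-SIL), *NUCB1* (0.956) and *SPOCK2* (0.945). *SPRY1* was most like *ERGIC3* (0.939), *NIBAN3* (0.931) and *ETV5* (0.921), and *IER3* most like *IFNAR2* (0.970), *DZIP1* (0.937) and *LOC100132078* (0.936). *DUSP1* was most like *APBB1IP* (0.965), *PCGF3* (0.962) and *ATG4B* (0.951), and *DUSP2* most like *CIAPIN1* (0.933), *FBXL14* (0.910) and *ZNF668* (0.909). *EGR1* had no gene as close, the nearest being *MS4A6A* (0.802), *C6orf136* (0.793) and *TNPO2* (0.781). The pairs of arrays of a line share their line, so that these r values describe line differences and are given with no p.

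Other genes were read through 9 lists, 8 of these pathways and 1 of handling and heat stress, with 123 measured genes in all. Of these 12 fell and 21 rose, beside 6.82% lower and 11.5% higher over all genes. Among all genes with a signal over 50 on at least 7 arrays, 13.2% were lower and 19.8% higher. The lists differ in brightness, so that each count below is to be read against both pairs of shares. Of 8 other MAP kinase phosphatases, 1 fell and none rose. This was *DUSP7*, an ERK phosphatase close to DUSP6, which fell by 0.38 on the log2 scale (SE 0.074, adjusted p = 0.00276 in limma) in 6 of 7 lines, and neither *DUSP16* (-0.16, adjusted p = 0.155) nor *PTPN5* (-0.14, adjusted p = 0.166) passed. The median change of the list was -0.092 on the log2 scale, beside 0.013 for all genes.

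Of 17 other immediate early transcription factor genes 2 fell and 2 rose, with a median of -0.014. *KLF6* rose by 0.53 on the log2 scale (adjusted p = 0.000101 in limma) and *MAFF* by 0.35 (adjusted p = 0.0149), both in 7 of 7 lines. *MAFF* was dim, with a median vehicle signal of 21.8. *SRF*, the factor that binds the CArG box, fell by 0.34 (adjusted p = 0.00704 in limma) in 7 of 7 lines, and *KLF10* was the other that fell (-0.33, adjusted p = 0.0164). Of 19 other immediate early genes none fell and 4 rose, with a median of 0.090. *PPP1R15A*, which codes for a subunit that directs a phosphatase to the translation factor eIF2, rose by 0.72 (SE 0.10, adjusted p = 0.000289) in 7 of 7 lines, *BTG1*, an antiproliferative gene, by 0.39 (adjusted p = 0.0083), *GADD45B* by 0.25 (adjusted p = 0.00882) and *NFKBIA*, the inhibitor of NF-kB, by 0.20 (adjusted p = 0.0277 in limma).

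Of 10 other feedback inhibitors of the Sprouty and SPRED kind and their partners, none fell and 3 rose. These were *NF1*, the RAS GTPase-activating protein, which was dim (log2 change 0.47, adjusted p = 0.0013, highest signal 29.99), and the ubiquitin ligase genes *CBL* (0.23, adjusted p = 0.0179) and *CBLB* (0.29, adjusted p = 0.0189 in limma), none of them a Sprouty gene. Of 10 genes listed under ETS and ERK output, 8 of which were under 50 on every array, 1 rose, *LZTR1* (0.22, adjusted p = 0.0266 in limma). *LZTR1* is not itself an output of ERK, and no other gene of the list passed. *HMGA2* changed by -0.13 (adjusted p = 0.254) and *LIF* by -0.11 (adjusted p = 0.407 in limma). The median changes of the 2 lists were 0.064 and -0.033.

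Of 22 genes of the RAS to ERK cascade 1 fell and 4 rose, with a median of 0.080. *SOS2*, a RAS exchange factor, rose by 0.40 (adjusted p = 0.000204), *SHC1*, an adaptor of receptor kinases, by 0.38 (adjusted p = 0.000402) and *RPS6KA1*, an ERK-activated kinase gene, by 0.32 (adjusted p = 0.00893 in limma), each in 7 of 7 lines. *GAB2* also rose (0.35, adjusted p = 0.0386), and *RPS6KA3*, a close relative of RPS6KA1, was the gene that fell (-0.20, adjusted p = 0.0359 in limma). Of 14 genes of the JNK and p38 cascade 4 fell and 1 rose, with a median of 0.086. *MAPK11*, the p38 beta kinase gene, rose by 0.31 (adjusted p = 0.00764 in limma) but was dim, with a median vehicle signal of 9.22. *RPS6KA4* (-0.29, adjusted p = 0.0198), *MAPK9* (-0.27, adjusted p = 0.0200), *MAP2K6* (-0.27, adjusted p = 0.0244) and *MAPKAPK3* (-0.25, adjusted p = 0.0176 in limma) fell.

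Of 14 serum response and CREB factor genes 1 fell and 5 rose, with a median of 0.12. *ELK3*, an ETS factor that works with SRF, rose by 0.39 (adjusted p = 0.00488) and *CRTC2*, a CREB coactivator, by 0.33 (adjusted p = 0.00292), and *CREB1* (0.26), *ETS1* (0.21) and *MRTFA* (0.21) rose too, with adjusted p from 0.0117 to 0.0317 in limma. *NAB2*, a repressor of EGR1, fell by 0.33 (adjusted p = 0.00598 in limma) in 7 of 7 lines.

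Genes that respond to handling and heat moved as well. Of 9 such genes 3 fell, *HSPH1* by 0.62, *DNAJB1* by 0.49 and *DNAJA1* by 0.49 on the log2 scale (adjusted p = 0.000557, 0.00522 and 0.00187 in limma), each in 7 of 7 lines, and *BAG3* rose by 0.28 (adjusted p = 0.0201). The summed signal of the list ran from 14010 to 20960 with vehicle and from 11420 to 18350 with AS605240. Its part in the changes of the immediate early genes was not tested.

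**Figure D5:**
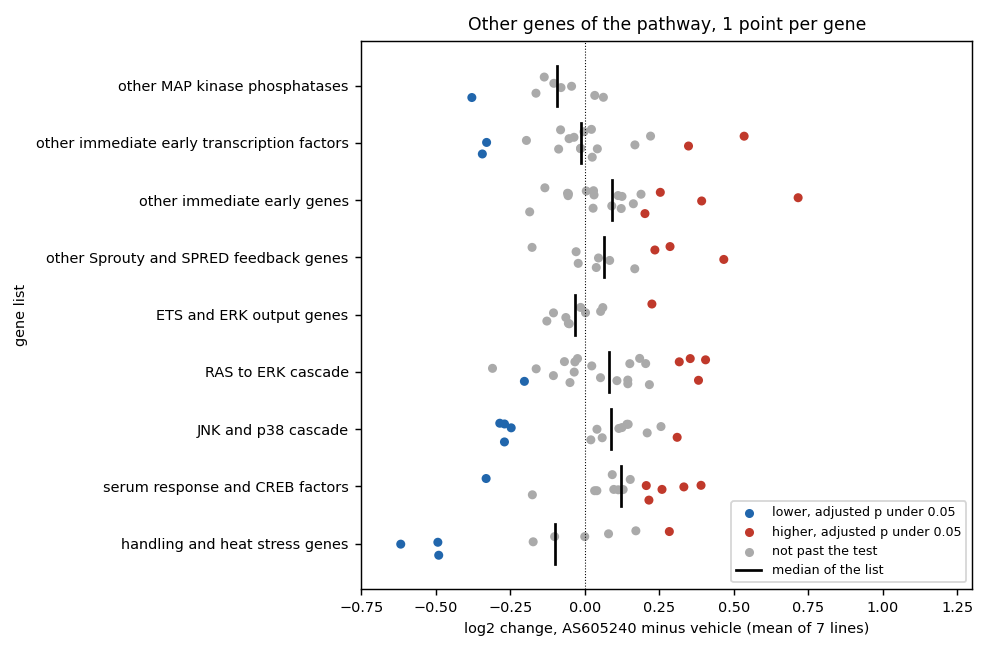
Mean log2 change, AS605240 minus vehicle, over 7 T-ALL lines for each measured gene (points) of the 9 lists (rows), colored by the limma call, with a bar at the median of the list. The list medians lie between -0.10 and 0.12, and called genes are found on both sides of 0 in 5 of the 9 lists.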

How the data were processed

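The authors summarized the HG-U133 Plus 2.0 arrays with iterPLIER in Affymetrix Expression Console 1.3.1.187, added 16 and took log2, by the study's methods and the submitters' processing notes. The values were deposited as linear signal intensities per probe set, so 16 was added and log2 taken again before any test. How the arrays were normalized ahead of iterPLIER is not stated in the methods or labels. The number of arrays limits the precision.

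Gene names came from the platform annotation, updated through RefSeq gene IDs. Of 54675 probe sets, 62 were controls, 11721 named no gene, 1801 named several and 41091 named 1. Each gene was read through its brightest single-gene probe set. AS605240 was compared with vehicle with limma 3.58.1 in R 4.3.3 (lmFit and eBayes) over 42892 probe sets with a symbol. The cell line was a block, as in the study's methods: the 2 arrays of a pair share a line, and their deviations from the group means correlated with r = 0.877 to 0.946. The p-values were adjusted by Benjamini-Hochberg over these probe sets. A gene was called at an adjusted p under 0.05. Sign-flip permutation tests were exact and two-sided. The fit was tested on simulated data. The limma p-values, SEs and intervals of the treatment rest on the spread of the change over 7 lines, which includes array noise. That spread is moderated toward the one common to all probe sets (prior df 7.91, residual df 6). For a gene whose change varied widely, such as *EGR1*, the SE is therefore smaller than its own 7 changes give. The sign-flip p-values use the 7 changes alone.

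The members, lists, motifs and tests were chosen with earlier results of these data known. Besides the members, the text names the 3 genes with the smallest p of each pathway list and the 3 genes most like each bright member. The genes beyond 3 in a list, where 4 to 6 passed, were chosen after their values were seen. So were the markers *CD79A*, *CD79B*, *BLNK*, *CD3G*, *TRAT1*, *LYZ* and *KRT8*, and the comparison of DUSP pairs, with and without averaged lines. Alternatives were other offsets, normalization, centring, filters and probe set rules, no block, averaged near-identical lines, and each line left out.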

Additional observations from a re-analysis of the deposited data

Results flagged for a closer look

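Of 30 sets of 7 values checked (each gene with vehicle, with AS605240 and as a change), 2 held a line far from the others, where chance gives about 1 in 20. The change of *DUSP4* was -0.65 on the log2 scale in P12-ICHIKAWA and between -0.21 and 0.040 in the other 6 lines, with signals of 24.96 and 10.1 that are both dim. The log2 value of *FOS* with vehicle was 4.12 in Jurkat and between 4.40 and 4.47 in the others, all from signals below the offset of 16.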

How the results depend on the processing

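Depth could not be read from arrays, and genes near or below a signal of 16, *FOS* and *DUSP4* throughout, gave no usable change. Without the replicate block, in which the spread between lines enters the error, 0 members and 0 of their probe sets were called in either direction. With an offset of 4, 2 members fell (*DUSP5* and *IER3*) and 0 rose, 2 probe sets fell and 1 rose, and the pathway lists gave 6 lower and 12 higher; the adjusted p of *DUSP2* in limma was then 0.0548. With an offset of 64, 1 member probe set rose. With only probe sets over 50 on at least 7 arrays, 2 members and 2 probe sets fell, since *DUSP5* and *FOSL2* were left out by this filter. With P12-ICHIKAWA and TALL-1 averaged, 0 members and 1 probe set rose. With each line left out in turn, 3 to 4 members fell and 0 to 1 rose, 3 to 5 probe sets fell and 0 to 4 rose, 2 to 3 members in place of 4 passed the sign-flip test, and the pathway lists gave 7 to 11 lower and 15 to 22 higher, with 7 lower without P12-ICHIKAWA. The sign of *EGR1* turned without TALL-1 (-0.040, range -0.040 to 0.55), and that of *DUSP4* with the mean of all its probe sets (0.020). *FOSL2* lost its call under 10 of 16 alternatives and *DUSP6* under 7 of 17, *DUSP5* and *IER3* only without the block. Where no value shows otherwise, the cause was not tested. Quantile normalization and median centring changed no limma call of a member between treatments, but under each 3 members passed the sign-flip test in place of 4, and with centring 9 in place of 8 differed between lines.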
